A study of Mus musculus with 7 samples.

Results

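Genes of the p53 response and of apoptosis, 10 in number, were followed in the posterior second heart field (pSHF) of mouse embryos with and without Sonic hedgehog: *Cdkn1a*, *Mdm2*, *Bbc3*, *Pmaip1*, *Trp53inp1*, *Ccng1*, *Bax*, *Bcl2*, *Fas* and *Sesn2*. They were taken by gene name from the array, which gave 17 of its 34747 probes that carry a gene name, for 10 of 21475 genes. The comparison asks whether loss of *Shh* left a cell death or p53 response in this tissue at E9.5. RNA came from 4 pools of *Shh* -/- tissue (mutant pools 1, 2, 3 and 4) and 3 pools of *Shh* +/+ tissue (wild-type pools 1, 3 and 4), with 1 single-dye Agilent array per pool. All embryos were E9.5, on a mixed background that the labels spell C56B/6 and CD-1, from *Shh* +/- females superovulated with PMS-G and HCG and mated to *Shh* +/- males. They were sorted by genotype after dissection and then pooled, so a value is an average over embryos, and nothing says how many embryos each pool held. By the paper, the dissected tissue took in the foregut attached to it and nearby ventral lateral plate mesenchyme. The heart, the dorsal lateral plate mesenchyme and the neural tube were left out. The mutants lack *Shh* in the whole embryo, not only in the cells sampled.

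p53 is a transcription factor that is kept low by Mdm2 and accumulates after DNA damage and other stress, when it switches on genes that stop the cell cycle, restrain growth or start apoptosis. Apoptosis is started either at the mitochondrion, where BH3-only proteins release Bax from restraint by Bcl2, or at the cell surface, where death receptors such as Fas recruit caspases. Hedgehog signals are known as survival factors for several embryonic tissues, and in the pSHF the signal comes from the adjoining foregut endoderm.

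The members are read by probes of 60 bases, and 4 short sequences show what some of them read. The *Bax* probe, shown whole because *Bax* is one of the genes the comparison turns on, spans 156 bases of genome at chr7:52721469-52721624 (mm9, the build of the array annotation, minus strand), so it crosses an intron. The *Fas* probe lies at chr19:34401902-34401961 on the plus strand, and its first 30 bases are given. *Mdm2* and *Bcl2* are each read by several probes, and for each the probe with the most reading frames free of a stop codon is shown. No base is in capitals in this set.
*Bax*: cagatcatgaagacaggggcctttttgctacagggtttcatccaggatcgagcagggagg
*Fas*: caactcctggtgtgttctctttgccagcaa
*Mdm2*: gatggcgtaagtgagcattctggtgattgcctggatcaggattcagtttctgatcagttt
*Bcl2*: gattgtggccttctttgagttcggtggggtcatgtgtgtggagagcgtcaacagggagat

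The second *Trp53inp1* probe is unlike the others, since it starts with a unit of 26 bases that occurs 2 times head to tail and is found in no other probe of the array. The unit lies at chr4:11098180-11098205 (mm9, plus strand) and is shown in capitals throughout.
*Trp53inp1*: AGTACTAATACTTACCACAGCAGGCG

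Promoters of 8 of the 10 members were found in the RefSeq table (GRCm38.p6, 11 windows), and *Pmaip1* and *Trp53inp1* were not matched. The 250 bases before each start were searched for the p53 half-site, a motif of 10 bases made of 3 purines, C, 2 bases that are A or T, G and 3 pyrimidines, which reads alike on both strands. Of the 8 members, 4 held a match in a window, *Cdkn1a*, *Ccng1*, *Mdm2* and *Bax*, against 8.2% of the 27025 genes in the table. For *Cdkn1a* both matches lie in the window at chr17:29090729-29091028, and its other window, at chr17:29093519-29093818, held none. Each match is a description of the letters and says nothing about binding. The matches are shown in capitals with 10 bases on either side, at chr17:29090896-29090925 and chr17:29090918-29090947 (plus strand) for *Cdkn1a*, and on the minus strand at chr11:40755452-40755481 for *Ccng1*, chr10:117710925-117710954 for *Mdm2* and chr7:45467080-45467109 for *Bax*.
*Cdkn1a*, 73 bases before the start: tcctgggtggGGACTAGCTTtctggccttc
*Cdkn1a*, 51 bases before the start: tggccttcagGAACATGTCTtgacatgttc
*Ccng1*, 185 bases before the start: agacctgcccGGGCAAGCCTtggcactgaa
*Mdm2*, 186 bases before the start: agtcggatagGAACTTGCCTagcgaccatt
*Bax*, 201 bases before the start: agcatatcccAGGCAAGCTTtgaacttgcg

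On no array were more than 70.6% of probes well above background. Signals are given as log2 of the normalized intensity, compared only within a probe. Pools 1, 3 and 4 of the genotypes shared a slide, and since the mutant pool held the same array position each time, a difference of position cannot be told apart from one of genotype. The array of mutant pool 2 had no wild-type array beside it, and its label records a possible leak during hybridization. The labels were checked with Hedgehog genes: *Shh* itself read 9.64, 9.36, 9.19 and 9.29 in the mutant pools and 10.69, 10.70 and 9.95 in the wild-type pools, lower in all 4 mutants but short of the threshold (limma, adjusted p = 0.0653). Whether its probe lies in the deleted part was not given in the sources used here. *Hhip*, a Hedgehog antagonist and target, fell by 2.83 on the log2 scale (limma, adjusted p = 0.00127), while the targets *Gli1* and *Ptch1* lay lower by log2 fold changes of −1.02 and −1.17 with adjusted p of 0.0674 and 0.143.

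Of the 10 members, 1 passed the test, *Fas*, which was higher in the mutants. Over the 14894 genes tested the same call was made for 0.786%, for 0.389% in the direction of *Fas* and for 0.396% in the other. In 2 of the 10 members, *Fas* and *Bax*, no mutant pool overlapped a wild-type pool, against 9.74% of all genes (5.97% higher in the mutants, 3.77% lower). An unadjusted p under 0.05 was reached by the same 2 members and by 9.1% of all genes. The median log2 fold change of the members was 0.052, beside 0.031 over all genes tested, with 6 members above 0 and 4 below. The 95% interval of the fold change lay within 1 log2 unit of 0 for 9 members and within 0.5 for 7, so for these 9 a change of 2-fold either way falls outside the interval.

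**Figure D1:**
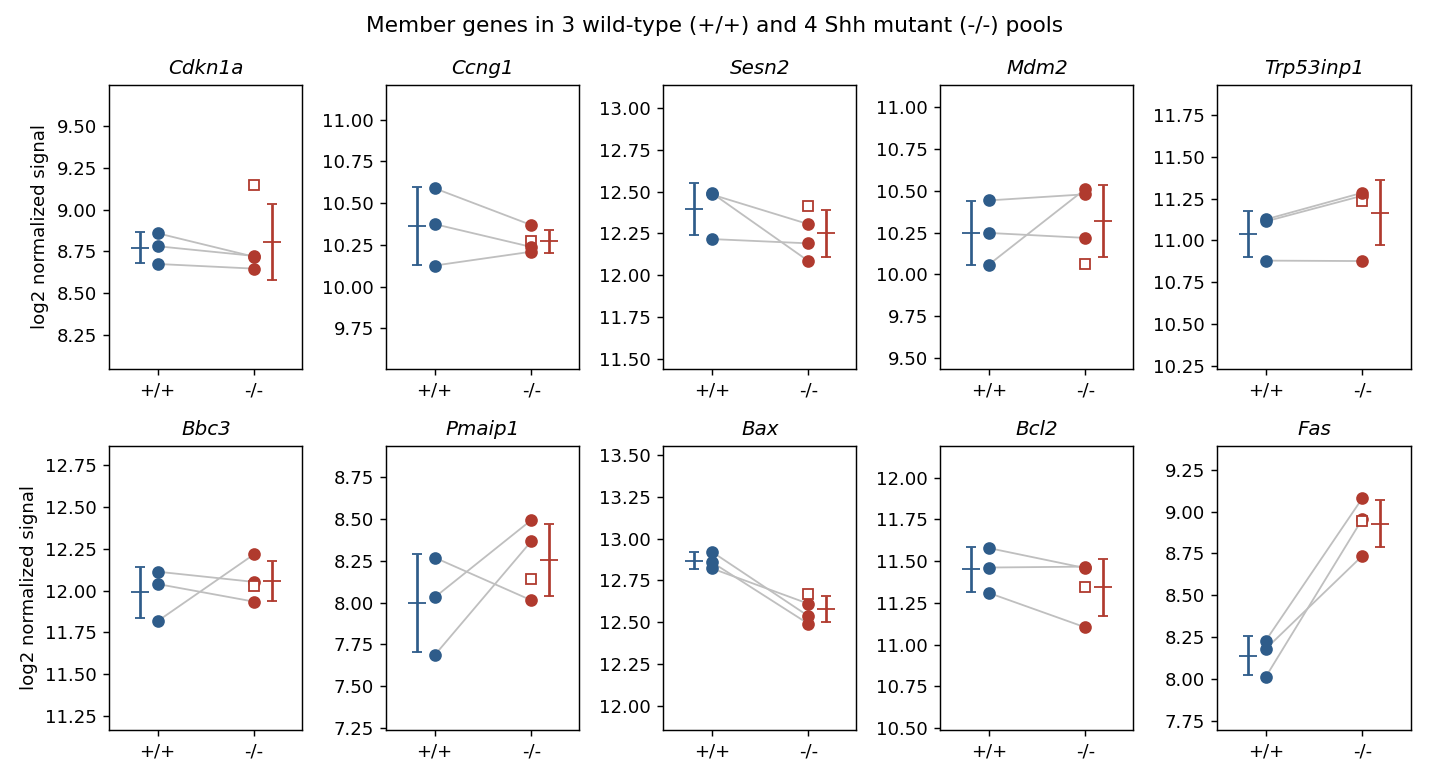
Normalized log2 signal of the main probe of each member in each pool, with wild-type (+/+) pools in blue and *Shh* mutant (-/-) pools in red. Grey lines join pools that shared a slide, the open square is mutant pool 2, bars beside the points are the mean and SD, and every panel spans the same log2 range. *Fas* lies between 8.74 and 9.08 in the mutants and between 8.01 and 8.23 in the wild type, *Bax* is the other gene whose groups do not overlap, and the remaining panels overlap.

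The genes that stop or slow the cell did not pass the test in either direction. *Cdkn1a* encodes p21, the cyclin-dependent kinase inhibitor that carries out much of the p53 arrest. It read 8.72, 9.15, 8.72 and 8.65 in mutant pools 1 to 4 and 8.86, 8.78 and 8.67 in wild-type pools 1, 3 and 4. Mutant pool 2 was the high value, and the other mutant pools lay at or below the wild type on their slides. The log2 fold change was 0.037 (95% interval −0.29 to 0.36, limma adjusted p = 1.00), and it turned to −0.076 without mutant pool 2. With each gene centred on its own mean, 14893 genes were compared with *Cdkn1a* by their deviations over the 7 pools. The closest were *2210018M11Rik*, *Zfp120* and *Zbtb40*, at a root mean square difference of 0.0513, 0.0523 and 0.0525 log2 units. The largest *Cdkn1a* deviation is that of mutant pool 2, so the likeness rests largely on that array. Shared regulation was not tested.

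*Ccng1*, which encodes cyclin G1, read 10.37, 10.27, 10.24 and 10.21 in the mutant pools and 10.59, 10.37 and 10.13 in the wild-type pools. Its mutant pools were close together and fell inside the wild-type range. Its log2 fold change was −0.091 (95% interval −0.39 to 0.20), and its second probe gave −0.039 (−0.32 to 0.24).

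*Sesn2* encodes sestrin 2, a stress-induced protein that restrains mTORC1. Its brighter probe read 12.09, 12.42, 12.31 and 12.19 in the mutants and 12.49, 12.48 and 12.22 in the wild type, a log2 fold change of −0.15 (95% interval −0.44 to 0.14). Its other probe read 10.22, 10.18, 9.89 and 10.05 in the mutants and 9.67, 9.90 and 9.85 in the wild type, a log2 fold change of 0.28 (95% interval −0.0022 to 0.56, limma adjusted p = 0.638). The 2 probes therefore pointed in opposite directions, neither passed the test, and both had overlapping groups. Averaged over both probes, the log2 fold change was 0.066.

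The p53 feedback genes also overlapped between the genotypes. *Mdm2*, the ubiquitin ligase that removes p53 and is itself induced by it, read 10.22, 10.06, 10.51 and 10.48 in the mutants and 10.25, 10.06 and 10.44 in the wild type. Its log2 fold change was 0.068 (95% interval −0.27 to 0.41), and the probe shown above gave −0.035 (−0.40 to 0.33). On slides 1, 3 and 4 the main probe differed by −0.030, 0.45 and 0.037 and the other probe by 0.40, −0.18 and −0.47, so the probes did not share a pattern over the slides. *Trp53inp1*, a stress-induced nuclear protein that acts with p53, read 11.27, 11.23, 11.28 and 10.88 in the mutants and 11.11, 11.13 and 10.88 in the wild type. Both pools of slide 4 were low, the mutant and the wild type alike. The log2 fold change was 0.13 (95% interval −0.19 to 0.44), and the probe with the repeated unit gave 0.16 (−0.10 to 0.42).

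Among the initiators of the mitochondrial pathway, neither BH3-only member passed the test. *Bbc3* encodes PUMA and read 12.05, 12.03, 11.93 and 12.22 in the mutants and 12.11, 12.04 and 11.82 in the wild type, a log2 fold change of 0.068 (95% interval −0.21 to 0.34). *Pmaip1* encodes NOXA and read 8.01, 8.14, 8.49 and 8.37 in the mutants and 8.27, 8.03 and 7.68 in the wild type. Its groups overlapped, with the mutant lower on slide 1 by 0.26 and higher on slides 3 and 4 by 0.46 and 0.68. Its log2 fold change of 0.26 had the widest interval of the members' main probes, −0.13 to 0.65 (limma, adjusted p = 0.950), an upper end of 1.57-fold.

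*Bax*, the pore-forming effector, lay lower in every mutant pool without passing the test over all probes. Its signal was 12.61, 12.66, 12.49 and 12.54 in the mutants and 12.82, 12.86 and 12.92 in the wild type. The highest mutant pool was below the lowest wild-type pool, and the mutant was lower by 0.21, 0.37 and 0.39 on slides 1, 3 and 4. The log2 fold change was −0.29 (95% interval −0.52 to −0.060), or 0.817-fold (0.696 to 0.959), with a limma p of 0.0192 before adjustment and 0.403 after. The exact permutation test of 4 pools against 3 gave its smallest possible two-sided p, 0.0286. It adds little to the lack of overlap, seen in 9.74% of all genes. The direction held in all 20 other ways of processing the arrays, in none of which *Bax* passed the threshold. Many of these could not turn it. Groups that do not overlap keep their direction when a pool is left out or slide is a block. Another filter or a variance trend leaves the fold change as it is.

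*Bcl2*, the protector that holds Bax in check, is read by 3 probes that were all slightly lower in the mutants. The brightest read 11.46, 11.35, 11.47 and 11.10 in the mutants and 11.58, 11.46 and 11.31 in the wild type, with overlapping groups. Its log2 fold change was −0.11 (95% interval −0.40 to 0.19), the probe shown above gave −0.038 (−0.48 to 0.40), and the third probe −0.20 (−0.54 to 0.15).

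*Fas*, the death receptor, rose in the mutants. Its main probe read 8.96, 8.95, 9.08 and 8.74 in mutant pools 1 to 4 and 8.01, 8.23 and 8.18 in wild-type pools 1, 3 and 4. The groups did not overlap, and the mutant was higher by 0.94, 0.85 and 0.56 on slides 1, 3 and 4. The log2 fold change was 0.79 (standard error 0.12, 95% interval 0.52 to 1.06), or 1.73-fold (1.43 to 2.09), with a limma adjusted p of 0.0356. The size of the change exceeded that of 98.0% of the genes tested. The exact permutation test gave its smallest possible two-sided p, 0.0286, which adds little to the lack of overlap, seen in 9.74% of all genes.

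The probe is printed 10 times on each array, which gives a view of the error within a pool. The 38 mutant spots kept ran from 8.71 to 9.15 and the 28 wild-type spots from 7.94 to 8.32, so single spots did not overlap either. For *Bax*, also printed 10 times, the 39 mutant spots reached up to 12.75 and the 30 wild-type spots down to 12.75, so the extremes met. The median SD between spots of a pool was 0.039 for *Fas* and 0.026 for *Bax*, and these spots share 1 RNA pool, so they are not replicates of the genotype.

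**Figure D2:**
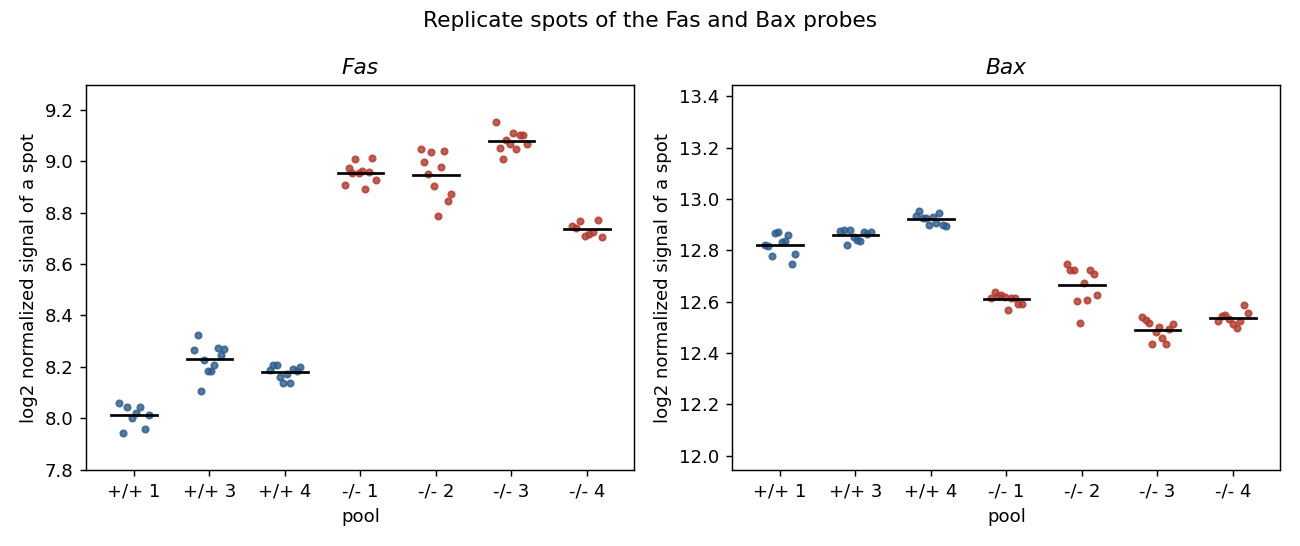
Normalized log2 signal of each replicate spot of the *Fas* probe (left) and the *Bax* probe (right) by pool, wild type (+/+) in blue and *Shh* mutant (-/-) in red, with a black line at the mean of the spots. All *Fas* spots of the mutants (8.71 and above) lie above all those of the wild type (8.32 and below), while the *Bax* extremes meet at 12.75.

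The call for *Fas* was close to the threshold. With slide as a block the log2 fold change was 0.78 with an adjusted p of 0.103, and with slide as a random block it was 0.79 with an adjusted p of 0.0244, still a call. Mutant pool 2 was alone on its slide, so the block took the fold change from pools 1, 3 and 4 only. Its estimate of 0.78 is therefore the same as that without mutant pool 2. With 1 pool left out the adjusted p lay between 0.0668 and 0.157 in 6 cases (mutant pools 1, 2 and 3 and wild-type pools 1, 3 and 4) and was 0.0354 only without mutant pool 4. A second *Fas* probe was well above background in 1 of 4 mutant and 2 of 3 wild-type pools and was not tested, so the result has no second probe behind it.

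**Figure D3:**
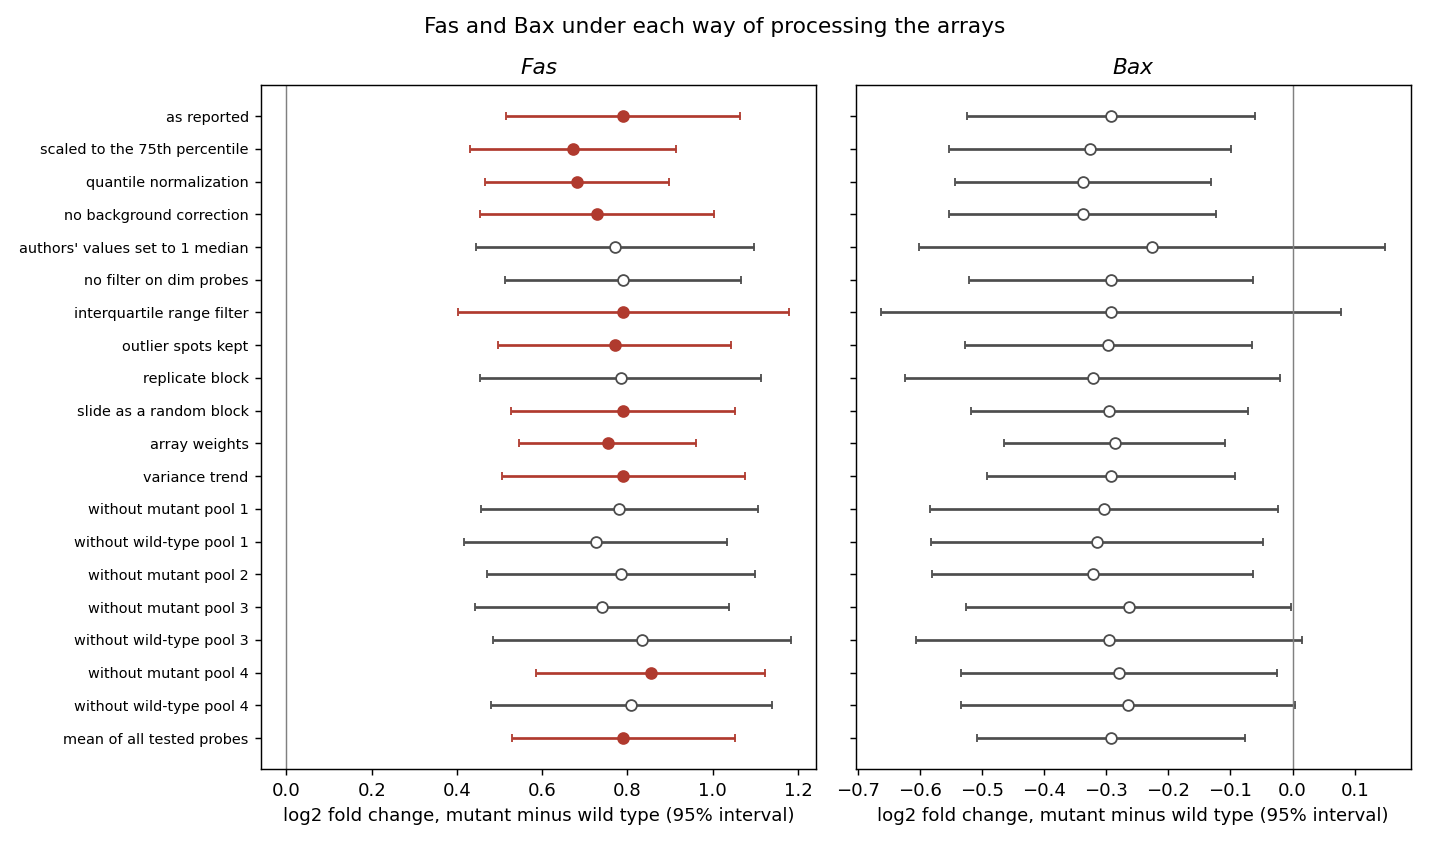
Log2 fold change, mutant minus wild type, of *Fas* (left) and *Bax* (right) with its 95% interval under each way of processing the arrays except the authors' values as deposited. Filled red points have an adjusted p under 0.05 and open points do not. The *Fas* value lies between 0.67 and 0.85, past the threshold in some settings only, and *Bax* lies below 0 in each without passing it.

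**Figure D4:**
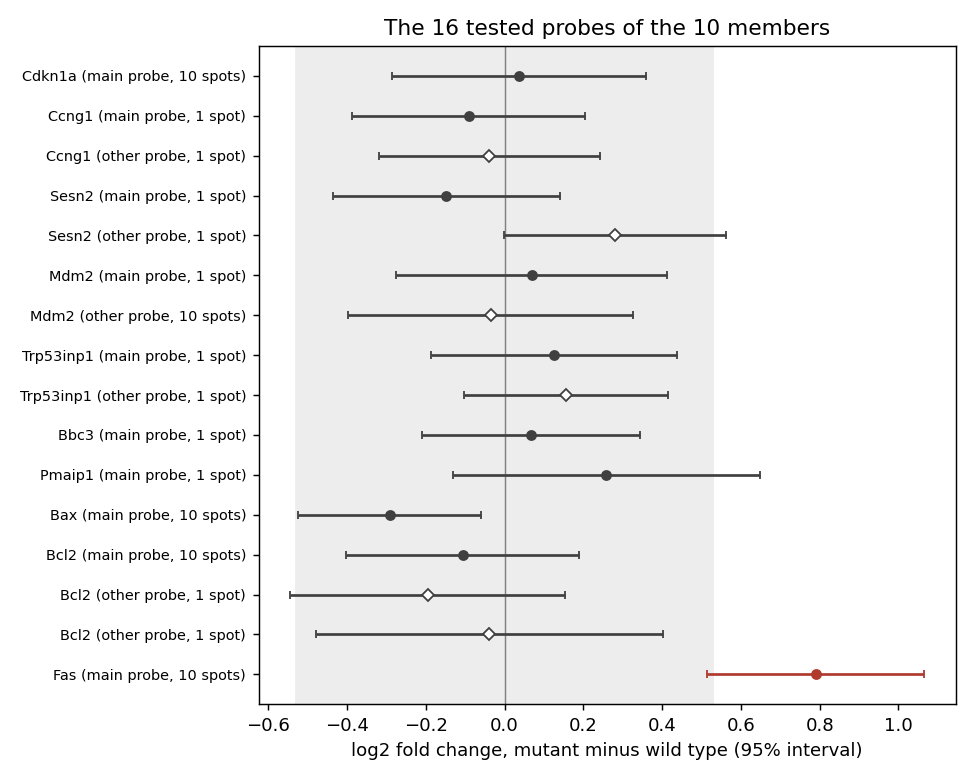
Log2 fold change, mutant minus wild type, with its 95% interval for the 16 tested probes of the members. Filled circles are main probes, open diamonds other probes of the same gene, red marks the 1 call, and the grey band is the central 95% of all genes tested (−0.53 to 0.53). *Fas* at 0.79 lies outside the band, and the 2 *Sesn2* probes lie on either side of 0.

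Markers of other tissues differed between the genotypes in the same pools. Liver bud markers were higher in the mutants for 8 of 8 genes with a median log2 fold change of 0.88, and 4 passed the test, among them *Alb* (1.22) and *Ttr* (0.91), although only 1 passed after quantile normalization, 0 with slide as a block and 0 to 3 with 1 pool left out. Unlogged signals were also summed over the main probes of a list, a sum in which bright probes weigh most. For the liver bud it was 144365 to 196154 in the mutants and 132152 to 144451 in the wild type. Sclerotome markers were lower for 3 of 4 genes with 2 calls, *Pax1* (−3.01) and *Pax9* (−2.55, well above background in 1 of 4 mutant pools). Their size depended on the scaling. After quantile normalization *Pax1* was at −2.47 and *Pax9* at −1.27, both still called. Neural crest markers were lower for 4 of 4 with 1 call, *Dlx2* (−1.27). The groups did not overlap in 6 of the 8 liver bud, 2 of the 4 sclerotome and 1 of the 4 neural crest markers. Over all genes 0.786% were called and 9.74% did not overlap. With slide as a block *Pax1*, *Pax9* and *Dlx2* lost their calls (adjusted p of 0.123, 0.0543 and 0.0640). The summed signal was 147 to 241 against 634 to 1500 for the sclerotome and 1568 to 2125 against 2972 to 3511 for the neural crest.

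Macrophage markers were tested for 4 of 7 genes with no call, against 0.786% of all genes. Their median was 0.16, with summed signals of 271 to 324 in the mutants and 234 to 281 in the wild type. The macrophage receptor gene *Mrc1* was higher without overlap at 0.73 (limma adjusted p = 0.194), and *Adgre1*, *Cx3cr1* and *Itgam* were not well above background. No gene passed the test among markers of erythroid cells (7 of 7 lower, median −0.40), cardiomyocytes (7 of 7 higher, 0.24), endothelium (6 of 7 higher, 0.070), foregut endoderm (2 of 7 higher, −0.12), neural tube (6 of 6 lower, −0.25, *Sox1* and *Nkx2-2* not well above background) or myotome (2 of 3 higher, 0.25, *Myf5* and *Myod1* not well above background). After scaling to the 75th percentile 6 of 7 cardiomyocyte and 5 of 7 endothelial genes were higher. Second heart field markers were well above background in all pools for 9 of 9 genes, with a median of −0.25 and no call. The groups did not overlap in 4 of the 9, against 9.74% of all genes. *Osr1* (−0.88), *Foxf1a* (−0.80) and *Isl1* (−0.43) were lower in the mutants and *Gata6* (0.26) was higher. These 4 also had an unadjusted p under 0.05, against 9.1% of all genes. The part of these cell types in the *Fas* and *Bax* differences was not tested, and in RNA from whole tissue fewer cells of a type and less RNA per cell cannot be told apart.

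The wider p53 response was examined through 30 further targets, of which 28 were tested. None passed the test by limma, against 0.786% of all genes, and 5 had an unadjusted p under 0.05, against 9.1%. The median log2 fold change was 0.023. *Rprm*, an inhibitor of entry into mitosis, was the highest at 0.67 (95% interval 0.27 to 1.07, limma adjusted p = 0.203), with 10.67, 11.22, 10.51 and 10.65 in the mutants and 10.27, 10.05 and 9.96 in the wild type. *Gdf15*, a secreted stress cytokine, followed at 0.55 (0.18 to 0.92, limma adjusted p = 0.284), with 6.96, 7.34, 7.48 and 7.01 in the mutants and 6.42, 6.76 and 6.76 in the wild type. In both genes all 4 mutant pools lay above all wild-type pools, and *Rprm* passed the threshold with array weights, a fit in which wild-type pool 3 counted with 5.89 and the other pools with 0.475 to 1.20.

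The lowest of these targets had negative values. *Eda2r*, a receptor of the TNF receptor family, had a log2 fold change of −0.71 (95% interval −1.33 to −0.089, limma adjusted p = 0.495), and *Btg2*, an antiproliferative gene, −0.32 (−0.63 to −0.022, adjusted p = 0.560). Both had overlapping groups. Of the 28 targets 16 lay above 0, and after scaling to the 75th percentile 13. The groups did not overlap in 4 of 28, all higher in the mutants (*Rprm*, *Gdf15*, *Sesn1* and *Fdxr*), against 5.97% of all genes that were higher without overlap and 3.77% that were lower.

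The genes for p53 itself and its regulators gave 0 calls by limma among 17 tested of 18, against 0.786% of all genes. Of the 17, 0 had an unadjusted p under 0.05, against 9.1% of all genes. In 1 of them, *Atr*, the mutants were higher without overlap, against 5.97% of all genes. Their median log2 fold change was 0.048. *Trp53* read 11.30, 11.40, 10.18 and 10.25 in the mutants and 10.35, 10.74 and 10.88 in the wild type. Mutant pools 1 and 2 were the highest and mutant pools 3 and 4 the lowest of all, and the log2 fold change was 0.13 with a 95% interval of −0.60 to 0.85. The ends of the list were *Ep300*, a p53 coactivator and acetyltransferase (0.33, −0.16 to 0.83), *Atr*, a DNA damage kinase (0.17, −0.065 to 0.41), and the p53 relatives *Trp73* (−0.19, −0.61 to 0.23) and *Trp63* (−0.28, −0.71 to 0.15). p53 acts mainly through its protein level, which arrays do not measure.

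In the other BCL2 family genes 0 of 12 tested passed the test by limma, against 0.786% of all genes. Of the 12, 0 had an unadjusted p under 0.05 and 0 had groups without overlap, against 9.1% and 9.74% of all genes. The pore-forming partner of Bax, *Bak1*, gave 0.16 (95% interval −0.12 to 0.43), the BH3-only gene *Bik* 0.19 (−0.10 to 0.49), the effector *Bok* −0.088 (−0.47 to 0.29) and the hypoxia-linked *Bnip3* −0.26 (−0.72 to 0.19). The median was 0.010, and *Bcl2a1a*, *Bcl2l10* and *Hrk* did not reach the background threshold.

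The partners of *Fas* were examined in the death receptor pathway. None of 8 tested genes passed by limma (0.786% of all genes did), 1 had an unadjusted p under 0.05 (9.1% of all genes did), and the median was 0.077. Values were above 0 for 7 of 8, and for 5 of 8 after scaling to the 75th percentile, and in 2 of 8 the mutants were higher without overlap, against 5.97% of all genes. The gene with an unadjusted p under 0.05 was *Ripk1*, the kinase that joins death receptors to survival and death signals. It read 8.12, 8.28, 7.98 and 7.93 in the mutants and 7.68, 7.73 and 7.73 in the wild type. Its groups did not overlap, and its log2 fold change was 0.36 (95% interval 0.096 to 0.63, limma adjusted p = 0.346). *Tnfrsf1a*, the main TNF receptor, gave 0.22 (−0.055 to 0.49), again without overlap, the adaptor *Tradd* 0.0091 (−0.24 to 0.26) and the caspase-8 inhibitor *Cflar* −0.042 (−0.48 to 0.40). *Fasl*, which encodes the ligand of Fas, and the ligand genes *Tnf* and *Tnfsf10* were not well above background in all pools of either genotype and were not tested.

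The caspases and the execution genes gave 0 calls by limma among 17 tested, against 0.786% of all genes. Their median was 0.075, beside 0.031 over all genes tested. Values were above 0 for 14 of 17, and for 12 of 17 after scaling to the 75th percentile. Of the 17, 0 had an unadjusted p under 0.05, against 9.1% of all genes. In 1 of them, *Birc3*, the mutants were higher without overlap, against 5.97% of all genes. The inhibitor genes *Birc3* (0.26, 95% interval −0.023 to 0.54) and *Xiap* (0.17, −0.41 to 0.75) were the highest. *Casp2* (−0.028, −0.32 to 0.27) and *Dffb*, the nuclease that cuts DNA between nucleosomes (−0.022, −0.33 to 0.28), were the lowest. *Dffb* read 7.06, 7.27, 7.33 and 7.29 in the mutants and 7.06, 7.22 and 7.49 in the wild type, and its mutant pools fell inside the wild-type range. Cleavage of caspases, the step that starts execution, leaves no trace on an RNA array.

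Genes of the mitotic cell cycle, which p53 is known to repress during arrest, gave 0 calls by limma among 15 tested, against 0.786% of all genes. Of the 15, 0 had an unadjusted p under 0.05 and 0 had groups without overlap, against 9.1% and 9.74% of all genes. Their median log2 fold change was 0.00079. The proliferation marker *Mki67* was highest at 0.22 (95% interval −0.049 to 0.48), followed by the mitotic kinase *Plk1* at 0.13 (−0.15 to 0.41). The mitotic cyclin *Ccnb1* at −0.083 (−0.35 to 0.18) and the phosphatase *Cdc25c* at −0.057 (−0.41 to 0.30) were lowest. For 14 of the 15 genes the whole interval lay within 0.5 log2 units of 0.

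**Figure D5:**
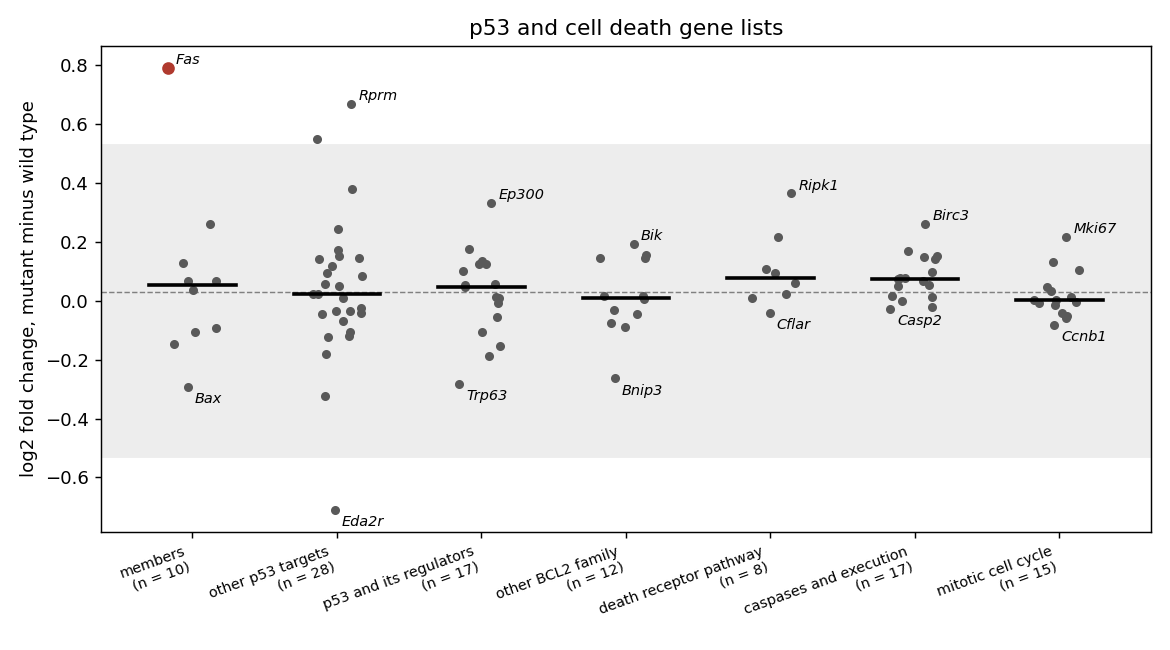
Log2 fold change, mutant minus wild type, of each tested gene of the members and of 6 further lists, 1 point per gene, with a black line at the median of each list. The grey band is the central 95% of all genes tested and the dashed line their median of 0.031, and gene names mark the highest and lowest of each list. The medians lie between 0.00079 and 0.077, and *Fas* (red) is the only gene past the threshold.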

How the data were processed

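RNA pools of pSHF tissue (4 *Shh* mutant, 3 wild type) were hybridized to 1 array each. The authors' deposited scan files hold mean signal and local background intensity per spot from Agilent Feature Extraction 10.5.1.1 (per the labels), with 43379 spots for 41174 probes and none saturated. The authors' processed log2 values, also deposited, have array medians from 5.50 to 9.93, so the arrays are not on a common level. By the methods, outlier features were excluded and signals were background corrected, by an unnamed method, before variance stabilizing normalization (VSN).

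Here mean signals were corrected by normexp (153 negative control spots per array, offset 50), outlier spots (155 to 206 per array) were dropped, and VSN was applied in an own implementation (0.9 of probes kept, 7 iterations, 5 strata). Spots of a probe were averaged. Probes with a gene name that were well above background (over 0.5 of their spots) on every array of at least 1 genotype were tested, 23127 probes for 14894 genes. A gene was read by its tested probe of highest mean signal, its main probe. Genotypes were compared unpaired with limma 3.58.1 in R 4.3.3, Benjamini-Hochberg over all probes, threshold 0.05, which called 129 probes. Plots used matplotlib 3.10.9 (Python 3.11.15). The statistics were tested on simulated data. The number of arrays limits the precision. P-values set the difference between genotypes against the spread between pools, which includes that between arrays.

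The replicate number marks a shared slide by the labels. Deviations from the genotype means correlated at 0.192, 0.238 and 0.0328 between arrays of a slide, and at a mean of −0.049 over 9 pairs from different slides. Slide was an alternative as a block. Also tried were quantile normalization, scaling by the 75th percentile, signals without background correction, the authors' values (and these set to 1 median per array, chosen after seeing the data), all named probes without the dim filter, the more variable probes by interquartile range, keeping outlier spots, slide as a random block, array weights, a variance trend, the mean of all tested probes of a gene, and omitting each array in turn.

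The members and the gene lists were chosen with earlier results of these data known. A gene of 1 list is not reported here, and that list was counted without it. Named were all members, 4 Hedgehog genes, *Trp53*, and from each of 6 further lists every called gene or otherwise the 2 highest and 2 lowest, and the 3 genes closest to *Cdkn1a*. *Alb*, *Ttr*, *Pax1*, *Pax9*, *Dlx2*, *Mrc1*, *Osr1*, *Foxf1a*, *Isl1*, *Gata6*, *Sesn1* and *Fdxr* were named after their values were seen. Promoter windows came from RefSeq (GRCm38.p6).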

Additional observations from a re-analysis of the deposited data

Results flagged for a closer look

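In 2 of the 39 genes examined, 1 of the 4 mutant pools stood far from the others, with a gap to its nearest neighbour above the 95% critical value of Dixon's test, which chance passes in about 1 of 20 groups. *Cdkn1a* in mutant pool 2 was at 9.15 against 8.65 to 8.72 in the other mutant pools, a gap of 0.848 of the range, and this pool's array is the one with the possible leak. *Trp53inp1* in mutant pool 4 was at 10.88 against 11.23 to 11.28, a gap of 0.877 of the range, and wild-type pool 4 on the same slide was also at 10.88. The cause was not tested in either case.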

How the results depend on the processing

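Over all probes 129 were called. The count was 33 without the filter on dim probes, 551 with array weights and 0 with the authors' values, as deposited and set to 1 median, where 28 and 1038 probes had an unadjusted p under 0.05. With the replicate block it was 11, and with 1 pool left out it ran from 12 to 136. Of the members 1 was called, *Fas*, and 0 with the authors' values (both forms), without the dim filter and with the replicate block, and 0 to 1 with a pool left out. For *Fas* the log2 fold change and adjusted p were then 0.16 and 0.953 (authors' values), 0.77 and 0.220 (set to 1 median), 0.79 and 0.0753 (no filter, more probes tested) and 0.78 and 0.103 (block). The other p53 targets had 1 call with array weights, *Rprm* (adjusted p = 0.0398), and the other 5 lists had 0 calls under every alternative run. The replicate block also ended the calls of the named markers *Alb*, *Ttr*, *Pax1*, *Pax9* and *Dlx2* and kept that of *Hhip*. Among the other members and the genes named from the 6 lists it changed no call.

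The members' median ran from −0.58 with the authors' values as deposited, where the median of all genes was −0.53, to 0.097. Those values turned the direction of *Cdkn1a* (−0.57), *Mdm2* (−0.58), *Bbc3* (−0.54), *Pmaip1* (−0.35), *Trp53inp1* (−0.51), *Gdf15* (−0.016), *Atr* (−0.38), *Ep300* (−0.32), *Bak1* (−0.47), *Bik* (−0.35), *Tradd* (−0.60), *Tnfrsf1a* (−0.40), *Ripk1* (−0.24), *Xiap* (−0.46), *Birc3* (−0.37), *Plk1* (−0.047) and *Trp53* (−0.46). Set to 1 median they turned *Trp73* (0.20) and *Casp2* (0.39). *Tradd* also turned after quantile normalization (−0.042), after scaling by the 75th percentile (−0.026), without background correction (−0.037) and with array weights (−0.0018), which turned *Bok* (0.0079) and *Cflar* (0.0071). The replicate block turned *Cdkn1a* (−0.076) and *Trp53* (−0.078), and the mean of all tested probes *Sesn2* (0.066). With 1 pool left out, values crossed 0 for *Cdkn1a* (−0.076 to 0.091), *Mdm2* (−0.027 to 0.165), *Bbc3* (−0.019 to 0.13), *Ccng1* (−0.21 to 0.021), *Trp53* (−0.078 to 0.33), *Bok* (−0.17 to 0.042), *Cflar* (−0.22 to 0.12), *Tradd* (−0.049 to 0.073), *Casp2* (−0.13 to 0.088), *Dffb* (−0.12 to 0.096) and *Cdc25c* (−0.195 to 0.055). The causes were not tested. *Bax* and *Fas* kept their direction under all 20 alternatives, and *Fas* its call in 10. The groups of these genes do not overlap, so leaving out a pool, the block or another filter could not turn their direction.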
